A study of Mus musculus with 48 samples.

Results

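The comparison described here is that of PPARγ siRNA (PPARγ KD) with control siRNA on day 4 of adipocyte differentiation. It rests on 6 of the 48 arrays of the study, 3 for each siRNA, which were chosen by day and siRNA in the sample titles and paired by replicate number, and on all 24613 probes of those arrays. The differences come from these 6 arrays, while their standard errors and p-values come from a fit over all 48. The cells were 3T3-L1, an established mouse line of fibroblast character in which hormones bring about adipocyte differentiation. Both groups were transfected before differentiation with a pooled siRNA at 50 nM, a SMARTpool against PPARγ or a non-targeting pool, using a lipid reagent (LipofectAMINE RNAimax). At confluence both received dexamethasone (0.25 µM) with the phosphodiesterase inhibitor IBMX (0.5 mM) for 48 h from day −2, then 5 µg/ml insulin and 1 µM rosiglitazone for 48 h from day 0. Rosiglitazone is an activating ligand of PPARγ, so that the control cells were exposed to it as well as the PPARγ KD cells. Day 4 is thus counted from the addition of rosiglitazone, and total RNA of whole cultures was collected in 3 biological replicates. The knockdown was transient, and the siRNA sequences were not analysed here.

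PPARγ is a nuclear receptor that pairs with the retinoid X receptor (RXR) on DNA, at repeats of a short hexamer, and switches on genes of fat storage. In fat cells it acts together with C/EBPα, and the genes under it build the lipid droplet, take up and esterify fatty acids, release them again, and encode hormones of adipose tissue. Because RNA was taken from whole cultures, fewer cells that became adipocytes and less RNA per adipocyte cannot be told apart in any value below.

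Between 33.9% and 39.0% of the probes lay above background (detection p under 0.01) on a day 4 array, and the number of arrays limits the precision. Replicate 3 stood apart under both siRNAs, with 33.9% to 34.7% of the probes above background against 38.1% to 39.0% in replicates 1 and 2. No day 4 array held the values of another. Signals are given as log2 of the background-corrected and scaled intensity, and every difference is PPARγ KD minus control siRNA on that scale, with its standard error (SE) and limma's p-value after Bonferroni correction over all probes. A probe was called at an adjusted p of at most 0.05. Signals near background compress a fold. Where a probe was above background on no PPARγ KD array, the fold is therefore given as a lower bound ("at least"), against the dimmest signal that still counted as above background or, if higher, that of the probe.

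The targeted gene was lower on every PPARγ KD array. Probe 6130632 of Pparg read 11.86, 11.75 and 11.68 under control siRNA (replicates 1 to 3) and 9.34, 9.41 and 9.36 in PPARγ KD, which is −2.39 apart (SE 0.11, adjusted p = 6.65e-18) or 5.25-fold. The groups were far apart, and the remaining transcript was above background on all 3 PPARγ KD arrays. Probe 1990168 fell by 2.51 (SE 0.18, adjusted p = 1.08e-11), from 8.92, 9.19 and 8.16 to 6.27, 6.60 and 5.88. The dimmer probe 2680603 was above background on 2 control arrays and on no PPARγ KD array, and its difference was −2.12 (at least 1.30-fold).

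On day 4 the called probes were mostly lower in PPARγ KD. Of the 24613 probes, 591 (2.4%) were called, of which 524 (2.13%) were lower in PPARγ KD and 67 (0.272%) were higher. They belonged to 534 gene symbols, 470 with a lower and 64 with a higher probe. The share of lower probes among those called was 88.7% (exact 95% interval 85.8% to 91.1%, counting error only). The interval treats the probes as independent, although they come from the same 6 arrays and some share a gene. It therefore gives no spread between experiments. The share also depended on the threshold and the fit. Calls by the Benjamini-Hochberg method gave 1217 lower and 711 higher probes (63.1% lower). Among probes with an unadjusted p under 0.05, 2288 were lower and 1901 higher. The 6 arrays fitted on their own gave 94.6% lower. With quantile normalization in place of rank-invariant scaling, 535 probes were lower and 150 higher, a lower share of 78.1%. The falls were also deeper, with a median difference of −1.01 over the lower probes, 0.63 over the higher probes and −0.05 over all probes. A fall past 4-fold was measured at 109 probes and past 2-fold at 264, whereas 11 probes rose past 2-fold and none past 4-fold. All 591 moved the same way in the 3 pairs of arrays.

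The arrays of both groups did not overlap for 491 of the 524 lower probes and 63 of the 67 higher probes, against 10.3% of all probes. Of the lower probes, 105 were above background on no PPARγ KD array, 68 of them while above background on all 3 control arrays, and 8 were above background on no day 4 array at all. By replicate the median of the lower probes was −1.09, −1.10 and −0.83, so that replicate 3 showed the same direction at a smaller size. The count depended on the arrays used: leaving out replicate 1 gave 360 calls, replicate 2 371 and replicate 3 515, and the 6 arrays fitted on their own gave 239. Here and below, leaving out a replicate removed its day 4 arrays only, and its arrays of other days stayed in the fit.

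**Figure D1:**
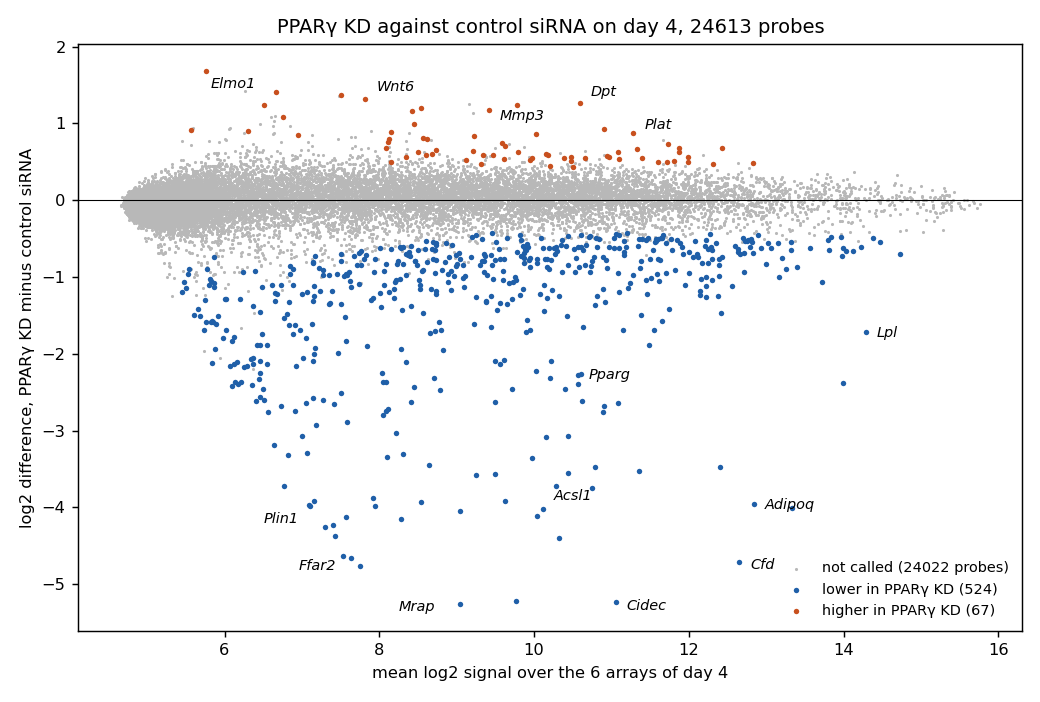
Each point is a probe, plotted by its mean log2 signal over the 6 arrays of day 4 (x axis) and its log2 difference, PPARγ KD minus control siRNA (y axis). Blue points are the 524 probes called lower, orange the 67 called higher and grey those not called. Among the labelled probes Mrap lies at −5.26, Plat at 0.88 and Wnt6 at 1.32, and Elmo1, at background in the control, is plotted at 1.41.

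The differences on day 4 can be set beside what each culture did after day −2, when the cocktail was first given. The 524 lower probes had risen by a median of 1.14 under control siRNA and by 0.13 in PPARγ KD, and 305 had risen past 2-fold in the control against 45 in PPARγ KD. All 24613 probes together had a median change of 0.08 and 0.01, and 419 and 136 of them had risen past 2-fold. Nearly all of the lower probes (523) had risen in the control cells, as had 16299 of all probes. The 67 higher probes went the other way: under control siRNA 53 had fallen since day −2 (median −0.30), while in PPARγ KD 53 had risen (median 0.34). Among all probes 8314 had fallen in the control and 12846 had risen in PPARγ KD. The day −2 and day 4 arrays of each siRNA give these changes, and the selection of the probes used the day 4 arrays, so they are descriptions.

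The changes of single adipocyte genes from day −2 are given for each siRNA, and their sizes are not compared between genes, because probes at background on day −2 or in PPARγ KD understate them. Cfd, which encodes the serum protease adipsin, changed by 10.02 in the control and by 5.19 in PPARγ KD. For Adipoq, the gene of the hormone adiponectin, the changes were 8.72 and 5.46. Gpd1, glycerol-3-phosphate dehydrogenase, went up by 8.38 and 4.82. Mrap, an accessory protein of the melanocortin receptors, changed by 6.68 and 1.43. The changes of Acsl1, which activates fatty acids with coenzyme A, were 4.97 and 1.19, and those of Retn, the hormone resistin, were 2.30 and 0.23. Lpl, the lipase that frees fatty acids at the cell surface, changed by 1.74 and 1.29.

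**Figure D2:**
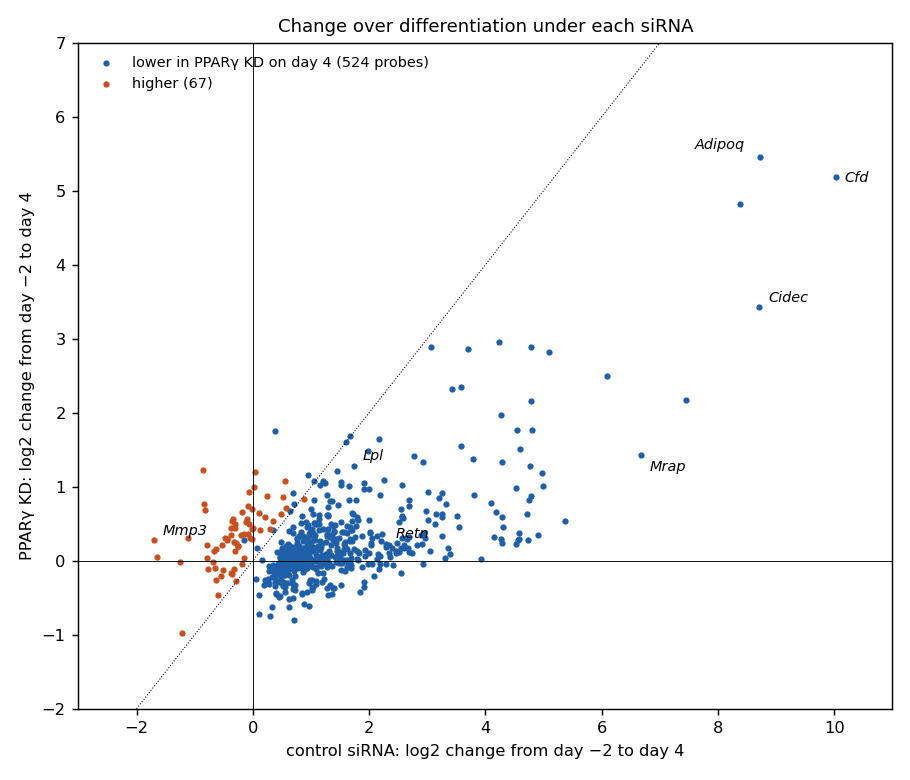
Log2 change from day −2 to day 4 under control siRNA (x axis) and in PPARγ KD (y axis) for the probes called lower (blue, 524) or higher (orange, 67) on day 4; the dotted line marks equal change. Most blue points lie right of the line near 0 on the y axis (median changes 1.14 and 0.13), with Cfd, Adipoq and Cidec rising under both siRNAs.

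Among 30 adipogenic transcription factors on the array, 6 had a called probe and all of these fell (9 of 43 probes, against 2.13% of all probes). The list holds Pparg itself, the target of the siRNA, which gave 3 of these 9 probes. The list's median, taken over its probes as for the lists below, was −0.12 beside −0.05 over all probes. Cebpa, the partner of PPARγ in fat cells, read 7.19, 7.09 and 7.80 in the control and 5.71, 5.36 and 5.80 in PPARγ KD (difference −1.74, SE 0.13, adjusted p = 2.05e-11). It was above background on no PPARγ KD array, which gives at least 1.78-fold. Nr1h3, the oxysterol receptor LXRα, read 9.65, 9.76 and 9.58 against 7.32, 7.13 and 7.26, a difference of −2.43 (SE 0.13, adjusted p = 1.36e-15) or 5.38-fold. The groups of both genes were well separated. Klf15, a factor of late adipogenesis, was more scattered at 8.36, 8.44 and 7.06 against 6.16, 5.87 and 6.45, and its difference of −1.79 (SE 0.26, adjusted p = 0.00103) was lost without replicate 1 (adjusted p = 0.495) or replicate 2 (adjusted p = 1). Rxra, the partner of PPARγ on DNA, was not called at −0.53 (adjusted p = 0.5), although its control arrays (8.22, 8.10 and 8.18) lay above its PPARγ KD arrays (7.58, 7.69 and 7.65).

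Of 21 adipokines and other secreted adipocyte proteins, 9 fell and none rose (11 of 30 probes, against 2.13% of all probes). The median was −0.66. Adipoq read 15.00, 14.87 and 14.56 in the control and 10.83, 10.90 and 10.85 in PPARγ KD, a 15.5-fold difference (log2 −3.95, SE 0.23, adjusted p = 4.23e-15). Cfd read 15.15, 14.99 and 14.88 against 10.35, 10.28 and 10.26, 26.1-fold apart (log2 −4.71, SE 0.20, adjusted p = 8.42e-20). Both groups were far apart at either gene, and the signals stayed above background on every PPARγ KD array. Orm1 and Hp, which encode the acute phase proteins orosomucoid and haptoglobin, differed by −4.12 and −3.72 (17.3-fold and 13.2-fold). Resistin (Retn) read 7.87, 7.40 and 7.23 against 5.19, 5.19 and 5.85, which are at background, and the fold was at least 1.96. Agt, the angiotensin precursor, differed by −2.47 (SE 0.18, 5.53-fold).

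**Figure D3:**
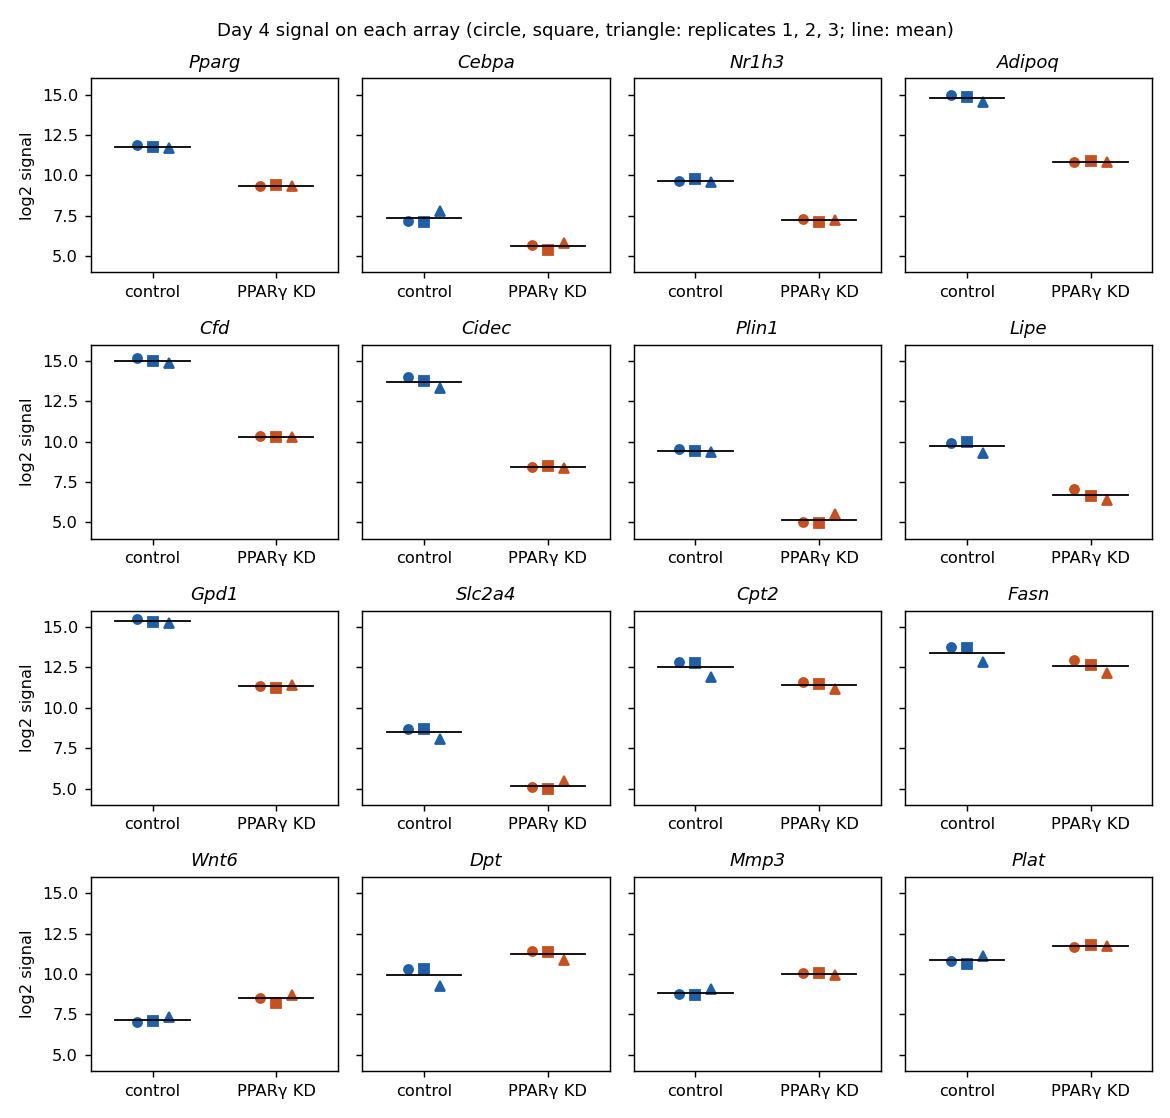
Log2 signal (y axis, same range in every panel) of 16 genes on the 3 control and the 3 PPARγ KD arrays of day 4; circles, squares and triangles are replicates 1, 2 and 3 and lines are group means. The arrays of the siRNAs are apart in every panel except Fasn, where control replicate 3 (12.80) lies below PPARγ KD replicate 1 (12.95).

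Of 17 lipid droplet proteins matched by symbol 9 fell and none rose (9 of 18 probes, against 2.13% of all probes, median −0.49). Cidec, which fuses droplets into larger ones, read 14.00, 13.74 and 13.29 in the control and 8.41, 8.51 and 8.39 in PPARγ KD (difference −5.24, SE 0.22, adjusted p = 5.97e-20, 37.8-fold). Plin1 (perilipin), the coat protein that guards the droplet from lipases, read 9.51, 9.42 and 9.35 against 5.05, 4.99 and 5.49. It was above background on no PPARγ KD array, at least 7.46-fold lower (adjusted p = 8.41e-21). Plin4, a coat protein of small nascent droplets, was less affected at 12.54, 12.57 and 12.24 against 10.93, 10.84 and 10.84 (difference −1.58, SE 0.08, adjusted p = 5.15e-16). G0s2, an inhibitor of the lipase ATGL, fell by 3.92 (15.1-fold), and Fitm2, which helps droplets to form at the endoplasmic reticulum, by 1.61.

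Genes of lipolysis and its hormonal control fell as well, 8 of 18 genes and none higher (8 of 28 probes, against 2.13% of all probes). The median was −0.19 over the probes and −0.75 over the genes, each given by its brightest probe. Lipe, the hormone-sensitive lipase, read 9.91, 9.998 and 9.31 in the control and 7.05, 6.65 and 6.41 in PPARγ KD (difference −3.03, SE 0.15, adjusted p = 2.57e-17, 8.20-fold). Pnpla2, which encodes ATGL, read 14.37, 14.26 and 13.79 against 10.59, 10.43 and 10.96, 11.1-fold lower. Mgll, the lipase of the last step from monoglyceride to glycerol, was not called (−0.52, adjusted p = 1). Mrap read 11.96, 11.85 and 11.19 against 6.35, 6.40 and 6.48 (difference −5.26, SE 0.22, adjusted p = 5.47e-20, 38.3-fold), and was above background on 1 PPARγ KD array. Receptors for small carboxylic acids, which restrain lipolysis, fell with it. Ffar2, a receptor of short-chain fatty acids, read 10.32, 10.35 and 9.72 against 5.31, 5.46 and 5.32, at least 12.1-fold lower. Hcar2, the niacin receptor, was at least 4.30-fold lower. The carboxylesterase CES3 was 21.1-fold lower (12.67, 12.59 and 12.29 against 8.06, 7.95 and 8.34).

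Triglyceride synthesis showed 5 of 18 genes lower and none higher (6 of 26 probes, against 2.13% of all probes, median −0.16). Gpd1, which makes the glycerol backbone, read 15.47, 15.33 and 15.22 in the control and 11.36, 11.23 and 11.38 in PPARγ KD (difference −4.01, SE 0.14, adjusted p = 1.12e-22, 16.2-fold). Both acyltransferases of the last step fell: Dgat2 by 3.08 (12.15, 12.13 and 11.64 against 8.94, 8.95 and 8.81, 8.44-fold) and Dgat1 by 2.46 (5.52-fold). Aqp7, the glycerol channel of the fat cell, read 9.29, 9.21 and 8.81 against 5.04, 4.79 and 5.51, at least 5.96-fold lower. A second Aqp7 probe gave −3.97, and the third was above background on no day 4 array. Pck1, an enzyme of glyceroneogenesis, was also above background on none of them.

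Promoters of the lower genes were searched for the ideal PPARγ:RXR element, AGGTCANAGGTCA (N any base), allowing up to 2 mismatches, on both strands, in the 250 bases before each start site of RefSeq (build GRCm38.p6). Of the 470 lower genes 338 had a promoter in that table, and 16 of these (4.73%) held a match, against 453 of 13496 genes with a probe (3.36%) and 1063 of 32851 promoter windows (3.24%). Of the 47 promoters of higher genes 0 held one. A match in these letters is a description and no measured binding site. Aqp7 is shown because it is the deepest called gene with matches, and Pdzk1, a scaffold protein of the membrane (difference −1.57), because its match had the fewest mismatches of these genes; it was chosen after its values were seen. Capitals mark the matched bases, 5′ to 3′ on the strand of the gene.
Aqp7, chr4:41048172-41048200, minus strand, 2 mismatches, element on the opposite strand, 43 bases before one start and 217 before another: ctggaactCCACCTCTGACCTcacaaggg
Aqp7, chr4:41048043-41048071, minus strand, 2 mismatches, element on the opposite strand, 88 bases before the start: tgccctacTGACCTCTCCCCTggagaagc
Pdzk1, chr3:96830000-96830028, plus strand, 1 mismatch, 44 bases before the start: ccgggagcAGGACAGAGGTCActtgaact

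Genes of fatty acid uptake and activation were mixed, with 4 of 19 lower and none higher (median −0.12). Of the probes of this list 4 of 31 were lower, against 2.13% of all probes. Acsl1 read 11.91, 12.02 and 12.43 in the control and 7.85, 7.76 and 8.70 in PPARγ KD (difference −4.02, SE 0.16, adjusted p = 8.09e-21, 16.2-fold). Lpl stayed bright under both siRNAs at 15.22, 15.03 and 15.19 against 13.32, 13.44 and 13.54 (difference −1.71, SE 0.10, adjusted p = 1.19e-14, 3.28-fold), and a second, dim probe was not called. The fatty acid binding protein Fabp5 fell by 2.11 and Dbi, the acyl-CoA binding protein, by 0.71. The best known members were poorly measured. Fabp4, the adipocyte fatty acid binding protein, read 8.93, 6.96 and 6.50 against 5.15, 5.10 and 5.54, above background on 2 control arrays, and was not called (−2.19, SE 0.54, adjusted p = 1). Cd36, the fatty acid translocase, read 7.47, 7.32 and 5.34 against 4.63, 4.58 and 5.06 and was not called either (−1.96, SE 0.47, adjusted p = 1). The control arrays of both genes were scattered but stayed above the PPARγ KD arrays.

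In de novo lipogenesis 10 of 21 genes fell and none rose (10 of 25 probes, against 2.13% of all probes, median −0.30). The size of the falls differed widely. Fasn, which makes palmitate, read 13.73, 13.69 and 12.80 in the control and 12.95, 12.67 and 12.14 in PPARγ KD, 1.77-fold lower (difference −0.83, SE 0.09, adjusted p = 2.67e-07). Its groups overlapped, since replicate 3 was lower under both siRNAs, whereas the differences within pairs all pointed down. Thrsp (Spot 14), a regulator of lipogenesis, read 9.94, 9.66 and 9.92 against 5.02, 4.99 and 5.61, at least 9.95-fold lower. Scd1, the desaturase that makes oleate, read 15.27, 15.23 and 15.07 against 12.85, 12.93 and 12.63 (5.23-fold). Pcx, pyruvate carboxylase, was 6.19-fold lower (11.03, 10.94 and 10.46 against 8.10, 8.26 and 8.18). Acly, which supplies acetyl-CoA from citrate, was not called at −0.45 (SE 0.09, adjusted p = 0.202).

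Cholesterol synthesis fell in 10 of 22 genes with none higher (13 of 29 probes, against 2.13% of all probes, median −0.51). Insig1, which holds back the activation of sterol-responsive transcription, differed by −1.95 (SE 0.13, adjusted p = 8.92e-13), read 9.82, 9.87 and 9.72 against 7.72, 7.68 and 8.15, and was called at 2 of its 3 probes. The enzymes Dhcr7, Pmvk and Lss differed by −1.24, −1.04 and −0.94. Sqle, the squalene epoxidase, was not called (−0.43, SE 0.08, adjusted p = 0.295).

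Genes of fatty acid oxidation were lower as well. Of 31 genes of mitochondrial and peroxisomal fatty acid oxidation 15 fell and none rose. Of the probes of this list 19 of 43 were called lower, against 2.13% of all probes (median −0.50). At an unadjusted p under 0.05, 37 of these 43 probes were lower and 0 higher, against 2288 lower and 1901 higher among all probes. Cpt2, which hands long-chain fatty acids to the mitochondrial matrix, read 12.81, 12.77 and 11.92 in the control and 11.56, 11.46 and 11.17 in PPARγ KD (difference −1.10, SE 0.10, adjusted p = 6.75e-09). Acadvl and Acadm, dehydrogenases for very long and medium chains, differed by −1.26 and −0.96, and the call of Acadm was lost without replicate 2 (adjusted p = 0.0515). Genes of peroxisomes were among them. Pex11a, a protein of peroxisome division, read 11.39, 11.44 and 10.996 against 9.25, 9.01 and 9.27 (difference −2.10, SE 0.12, adjusted p = 1.49e-15). The thiolase Acaa1b was at least 2.18-fold lower and the transporter Abcd2 differed by −1.35.

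In the pyruvate dehydrogenase complex and the TCA cycle 11 of 26 genes fell (11 of 34 probes, against 2.13% of all probes, median −0.50). Among them were Cs (citrate synthase, −0.82) and Idh3a (isocitrate dehydrogenase, −0.79). Pdha1, the first subunit of pyruvate dehydrogenase, was not called at −0.40. Branched-chain amino acid catabolism, a pathway that adipocytes use to feed lipogenesis, had 10 of 22 genes lower and none higher (median −0.53). Of its probes 10 of 27 were lower, against 2.13% of all probes. Bcat2, the first transaminase, read 10.003, 10.07 and 10.05 against 8.78, 8.86 and 8.50 (difference −1.33, SE 0.11, adjusted p = 1.36e-09). Bckdha, Ivd and Aldh6a1, enzymes further along, differed by −0.87, −0.97 and −1.41.

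Subunits of oxidative phosphorylation gave 17 of 64 genes lower and none higher (21 of 75 probes, against 2.13% of all probes, median −0.39). At an unadjusted p under 0.05, 61 of the 75 probes were lower and 0 higher. The muscle and heart forms of cytochrome oxidase subunits stood out. Cox8b read 9.37, 9.54 and 8.43 in the control and 5.01, 5.19 and 5.41 in PPARγ KD, at least 6.01-fold lower (adjusted p = 2.47e-13), and Cox7a1 was at least 4.36-fold lower. Cyc1 of complex III differed by −0.95, whereas Atp5b of the ATP synthase was not called (−0.42, adjusted p = 0.525). Of 31 antioxidant, thermogenic and mitochondrial regulators 6 fell (7 of 43 probes, against 2.13% of all probes). Examples were the electron carrier Cycs (−1.18) and the glutathione transferases Mgst1 (−1.06) and Mgst3 (−0.75).

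Of 23 genes of insulin signalling and glucose transport 2 fell and none rose (2 of 30 probes or 6.67%, against 2.13% of all probes, median −0.08). Slc2a4, the insulin-responsive glucose transporter GLUT4, read 8.68, 8.69 and 8.08 against 5.10, 4.95 and 5.45, at least 3.88-fold lower (adjusted p = 1.86e-12). Pfkfb3, which drives glycolysis through fructose-2,6-bisphosphate, read 9.10, 9.09 and 8.85 against 7.68, 7.60 and 7.46 (difference −1.43, SE 0.09, adjusted p = 2.13e-14). The insulin receptor itself, Insr, was not called (−0.43, SE 0.10, adjusted p = 1), and its groups overlapped.

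The study followed up kinases and other genes near PPARγ and RXR binding by reporter assays and an siRNA screen. The list of 19 genes matched by symbol is not the same as that work. It also holds Mknk1, and Pim1, Pim2, Stat5a, Ffar2 and Ffar4, which the study's text names only from other work. It lacks Cidec (Fsp27), Plin1 and Ech1, which the study tested and which are in other lists here. Of this list 9 fell on day 4, Ffar2 among them, and none rose (9 of 22 probes, against 2.13% of all probes, median −0.90). Pdzrn3, which the study describes as downregulated by PPARγ, was higher by 0.55 but not called (limma's Benjamini-Hochberg adjusted p = 0.012), and its groups overlapped. Since the study picked its followed-up genes in part by their expression on these arrays, the count is no independent evidence. BC054059, a further gene of the screen, was not matched to a list by its symbol, so it is in neither this count nor that of the lipid droplet proteins, and it was 37.2-fold lower. Pim3, a serine/threonine kinase, read 12.32, 12.31 and 11.79 in the control and 11.07, 11.31 and 10.87 in PPARγ KD (difference −1.06, SE 0.08, adjusted p = 1.61e-11, 2.08-fold). The kinase Mknk2, which phosphorylates the translation factor eIF4E, read 11.95, 11.85 and 11.54 against 10.86, 10.76 and 10.49 (−1.08), and a second probe was not called. Sncg (γ-synuclein) read 7.92, 7.66 and 7.68 against 6.39, 6.69 and 7.17 and missed the threshold on day 4 (−1.005, SE 0.18, adjusted p = 0.0529).

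Short stretches of the reporter inserts for Sncg and Pim3 are shown because they hold the bases that the study mutated, in a wild-type (WT) and a mutated (MUT) form. The inserts themselves were longer. Capitals mark the bases that best match AGGTCANAGGTCA, with 12 positions compared.
Sncg WT, 4 mismatches: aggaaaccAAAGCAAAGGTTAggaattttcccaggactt
Sncg MUT, 6 mismatches: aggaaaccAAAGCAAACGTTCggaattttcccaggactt
Pim3 WT, 3 mismatches: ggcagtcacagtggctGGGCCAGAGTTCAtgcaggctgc
Pim3 MUT, 5 mismatches: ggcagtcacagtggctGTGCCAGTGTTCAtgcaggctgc
Counted from 1 at the 5′ end, the mutated forms carry G17C and A21C in Sncg and G18T and A24T in Pim3. No reporter activity was measured on the arrays.

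The study also listed genes changed on its arrays that lie near binding sites, which it called by sequencing immunoprecipitated DNA. At heterosites PPARγ, at a lowered threshold, and RXR were called close together. At monosites either receptor was called without the other nearby. By PCR the study found both receptors at almost all of the monosites it tested. Because that list was drawn from the same arrays, the shares are descriptions. Of the 91 probes of 74 heterosite genes 44 were lower on day 4 (48.4%) and 0 higher, with a median of −0.69. Of the 218 probes of 198 genes with monosites alone 78 were lower (35.8%) and 6 higher, with a median of −0.35. Both shares lay above the 2.13% of all probes, a contrast that the choice of the list favours.

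Fewer probes rose than fell, 67 against 524. Of 57 genes of collagens, matrix and matrix enzymes 5 rose (8 of 90 probes, against 0.272% of all probes), with a median of 0.12. Another 2 genes fell (2 of 90 probes, near the 2.13% of all probes). Dpt (dermatopontin), a matrix protein of connective tissue, read 10.30, 10.33 and 9.23 in the control and 11.42, 11.39 and 10.86 in PPARγ KD (difference 1.27, SE 0.14, adjusted p = 7.29e-07, 2.41-fold). The matrix protease Mmp3 read 8.75, 8.70 and 9.04 against 10.03, 10.05 and 9.95 at probe 2650368 (difference 1.18, 2.27-fold). This probe had fallen by 1.70 from day −2 to day 4 under control siRNA and changed by 0.28 in PPARγ KD. Its second probe gave 0.99, a call lost without replicate 1 (adjusted p = 0.237) or replicate 3 (adjusted p = 0.133). Plat, the tissue plasminogen activator, read 10.79, 10.62 and 11.12 against 11.68, 11.79 and 11.70 (difference 0.88, SE 0.10, adjusted p = 8.74e-06). Adamts2, which trims procollagen, rose by 0.49 at its highest probe and was called at all 3 of its probes, but that call was lost without each of the replicates (adjusted p = 1, 0.421 and 0.151 without replicates 1, 2 and 3). The falls were Timp4, a metalloprotease inhibitor (−1.83), and Col15a1, a basement membrane collagen (−1.29).

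Of 49 preadipocyte and Wnt pathway genes 1 rose and none fell (1 of 64 probes or 1.56%, against 0.272% of all probes, median 0.05). This was Wnt6, a Wnt ligand that restrains adipogenesis, which read 7.04, 7.10 and 7.34 in the control and 8.53, 8.20 and 8.72 in PPARγ KD (difference 1.32, SE 0.10, adjusted p = 5.55e-11, 2.50-fold). Dlk1, the preadipocyte factor Pref-1, was bright under both siRNAs and not called (0.28, adjusted p = 1). The rises past 1 on the log2 scale also held Stc1 (stanniocalcin, 1.24), Prokr1 (a prokineticin receptor, 1.20), Cxcl15 (a chemokine, 1.37), Gfra1 (a GDNF receptor, at least 1.68-fold) and BC064033 (1.16), whose call was lost without replicate 1 (adjusted p = 0.193) or replicate 2 (adjusted p = 0.27). Elmo1, an adaptor of Rac signalling, read 5.74, 6.15 and 6.00 against 7.31, 7.41 and 7.38 (at least 1.77-fold), but at 1 of its 14 probes only. Outside these lists BC034902 was at least 10.9-fold lower, and the apolipoprotein Apoc4 (10.01, 9.97 and 8.87 against 5.12, 5.00 and 5.60) was at least 8.53-fold lower.

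Some lists gave no call in limma's test. Of 58 cell division genes 0 were called, with 1 probe lower and 15 higher at an unadjusted p under 0.05 and 0 lower and 1 higher after Benjamini-Hochberg adjustment (median 0.11). Mki67 (0.17) and Mcm2 (0.28), a proliferation marker and a replication licensing factor, were not called. Of 24 contractile and fibroblast cytoskeleton genes 0 were called (unadjusted p under 0.05 at 1 lower and 9 higher probes; 0 and 3 after Benjamini-Hochberg; median 0.04). The same held for 35 interferon response genes (1 lower and 10 higher at an unadjusted p under 0.05; 0 and 7 after Benjamini-Hochberg; median 0.01), where Ifit2 differed by 0.14. Of 29 chemokine and inflammatory genes 2 fell and none rose (3 of 41 probes or 7.32%, against 2.13% of all probes, median −0.05). Of 32 cytosolic ribosomal protein genes 1, Rps19, fell (−1.52, list median 0.00). That is 1 of 46 probes or 2.17%, near the share of all probes. The complement gene C3 differed by −0.90, a call lost without replicate 1 (adjusted p = 0.194), and Ccl2, which attracts monocytes, was not called (0.49, adjusted p = 1).

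**Figure D4:**
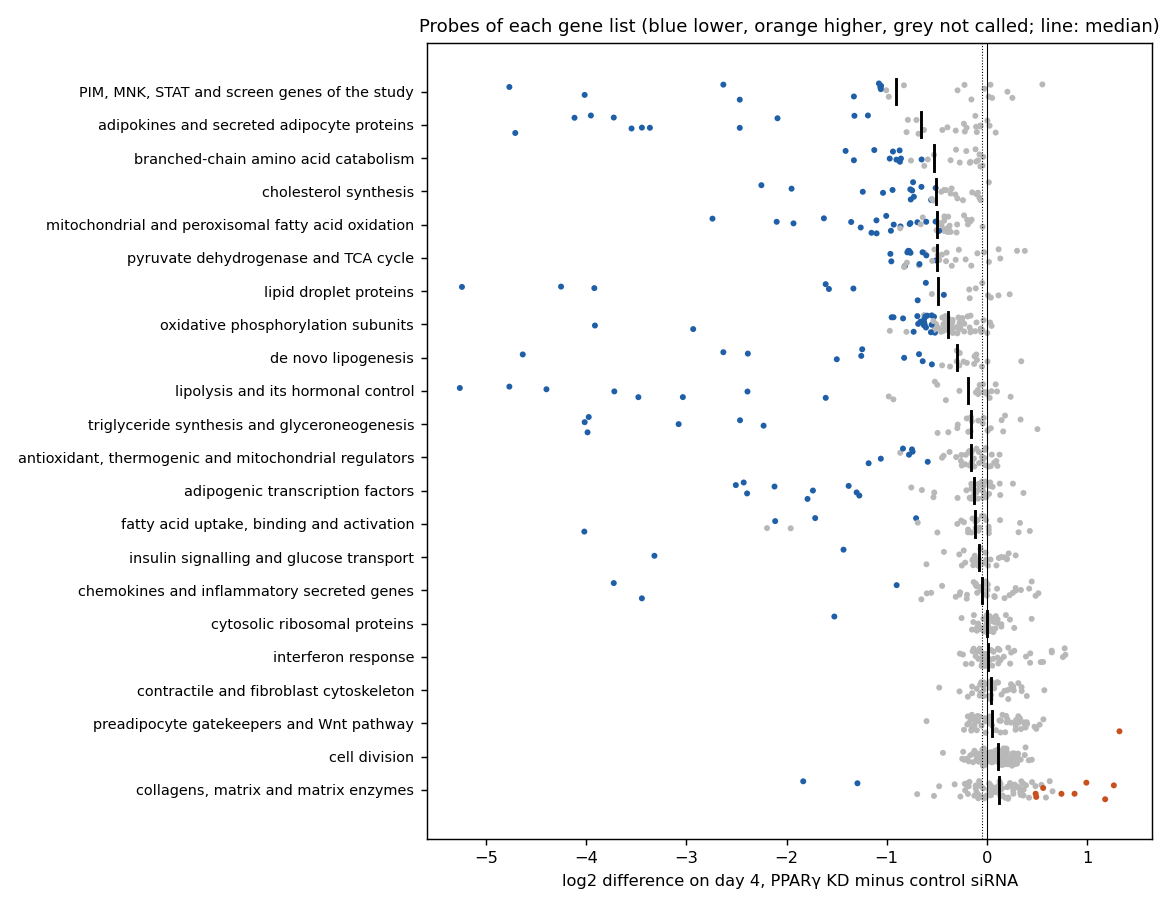
Log2 difference on day 4 (x axis, PPARγ KD minus control siRNA) of every probe of the 22 gene lists, ordered by median from the lowest at the top; blue probes were called lower, orange higher, grey not called, black bars are medians and the dotted line is the median of all probes (−0.05). Of the 22 lists, 16 have a median below that of all probes, and called rises appear in the matrix list and the preadipocyte and Wnt list.

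Defining markers of cell types were read beside these changes. The 8 adipocyte marker probes summed to 65985 to 88222 scaled, unlogged signal units on the control arrays and 3672 to 3744 in PPARγ KD. Of the 8 probes 6 were called lower (median −3.64), against 2.13% of all probes. The sums came mostly from Cfd, Adipoq and Cidec (mean log2 15.01, 14.81 and 13.68 in the control). Fabp4 was not called, and Pck1 was above background on no day 4 array. The 12 fibroblast and preadipocyte marker probes summed to 109744 to 120289 and 112874 to 128539, ranges that overlap, with 0 called in limma's test (0 lower and 5 higher at an unadjusted p under 0.05, 0 and 2 after Benjamini-Hochberg) and a median of 0.29. Among them Col3a1 (0.42) and Fn1 (0.14) were not called. Macrophage (8 probes), skeletal muscle (5) and brown fat (6) markers were above background on no day 4 array. Of 7 cartilage and bone probes 2 were above background on all 6 arrays, with sums of 6721 to 8350 and 6862 to 8795. Sox9 gave most of these sums (mean log2 12.77 in the control and 12.81 in PPARγ KD).

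Day 4 was then compared with its neighbours, by testing the difference of the siRNA effects of both days. The fall was already in place on day 3: of the 524 lower probes 523 had a difference below 0 on day 3 and all 524 on day 5, and all 67 higher probes were above 0 on both. Of all 24613 probes, 18904 had the same sign on day 3 as on day 4, and 16806 on day 5. The median difference of the 524 probes was −0.01 on day −2, −0.21 on day 0, −0.50 on day 1, −0.90 on day 2, −0.94 on day 3, −1.01 on day 4, −1.13 on day 5 and −1.12 on day 6. For the 67 higher probes it was 1.18 on day 2 and between 0.60 and 0.67 on days 3 to 6. These probes were chosen on day 4, and other days would give other probes.

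The effect differed between day 4 and day 3 at 11 probes (0.0447%). The fall was larger on day 4 at 7 of them. Apoc1, an apolipoprotein, went from −1.53 to −3.55 at probe 5900066 (difference of effects −2.02, SE 0.23, adjusted p = 4.65e-06) and by −1.91 at a second probe. Acss2, which makes acetyl-CoA from acetate, went from −0.21 to −1.50 (−1.29, SE 0.17, adjusted p = 0.000107), with day 4 signals of 12.43, 12.34 and 11.62 against 10.76, 10.83 and 10.30. Camp, the cathelicidin peptide, and Ubd, a ubiquitin-like modifier, deepened by 1.91 and 1.47 more, but both were lost without replicate 1 (adjusted p = 0.127 and 1) or replicate 2 (0.293 and 1).

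The opposite was seen for Pfkfb3, whose difference shrank from −2.57 on day 3 to −1.43 on day 4 (1.14, SE 0.12, adjusted p = 6.66e-07), and for Pim3, from −1.86 to −1.06 (0.81, SE 0.11, adjusted p = 0.000256). The call of Pim3 was lost with a block for each pair of a day (adjusted p = 0.0756) and without the block (adjusted p = 1). Plin4 went from −2.35 to −1.58 (0.78, SE 0.12, adjusted p = 0.00349), which was lost without replicate 3 (adjusted p = 0.248). Map7d2, a microtubule-associated protein, went from −2.77 to −0.96 (1.80), lost without replicate 1 (adjusted p = 0.0901) or replicate 3 (adjusted p = 0.415).

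Between day 4 and day 5 the effect differed at 6 probes (0.0244%), each with a smaller fall, or none, on day 4. Sncg had a difference of −1.005 on day 4, −3.14 on day 5 and −4.67 on day 6 (day 4 minus day 5 2.13, SE 0.25, adjusted p = 9.74e-06). For Egln3, a prolyl hydroxylase of the hypoxia response, the values were −0.91 and −2.50 (1.58, SE 0.20, adjusted p = 4.49e-05), and its day 4 call was lost without replicate 1 (adjusted p = 0.876) or replicate 2 (adjusted p = 1). Ffar4, the receptor of long-chain fatty acids, was above background on no day 4 array and went from −0.98 to −2.81, lost without replicate 3 (adjusted p = 0.12). Pdk1, the kinase that shuts pyruvate dehydrogenase, went from 0.12 to −0.90 (1.01), lost without replicate 2 (adjusted p = 0.219) or replicate 3 (adjusted p = 0.431). Cav2 (caveolin-2) went from −0.69 to −1.60 (0.91), which was lost without each of the replicates (adjusted p = 0.282, 0.0525 and 1 without replicates 1, 2 and 3), and its day 4 call was lost without replicate 1 (adjusted p = 0.785) or replicate 2 (adjusted p = 1).

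**Figure D5:**
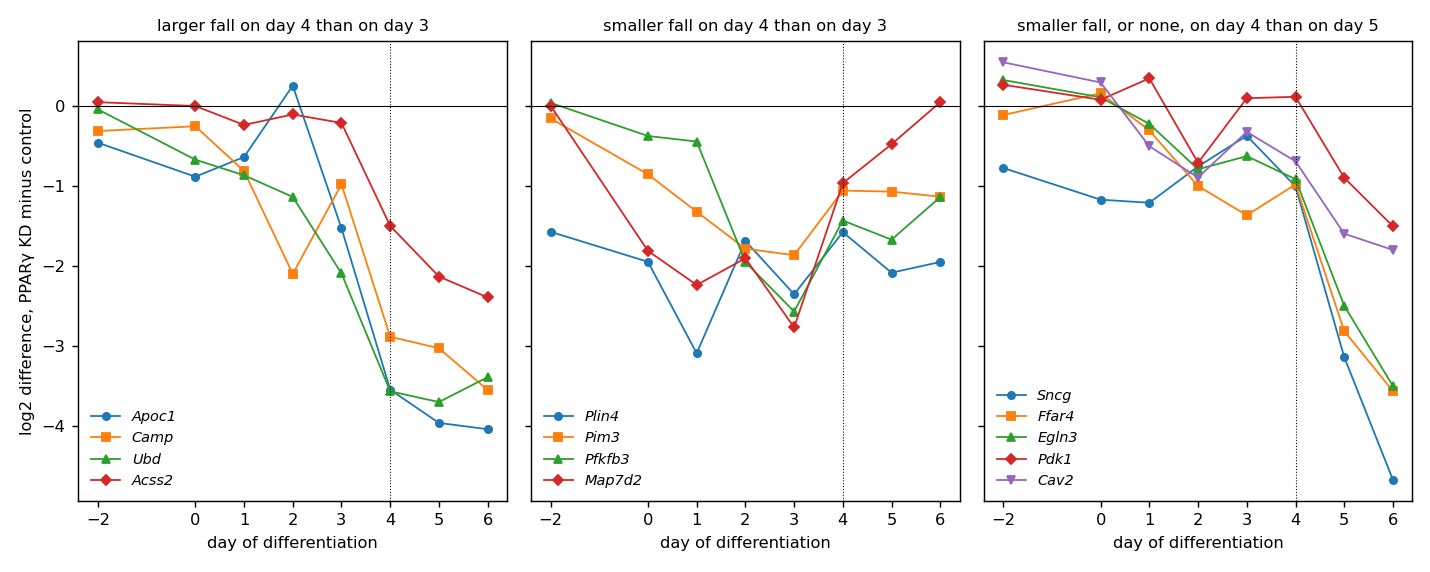
Log2 difference, PPARγ KD minus control siRNA (y axis), by day of differentiation (x axis) for genes whose effect on day 4 (dotted line) differed from day 3 (left and middle) or day 5 (right); each point is the mean of 3 pairs of arrays. Apoc1 drops from −1.53 to −3.55 between days 3 and 4, Pfkfb3 returns from −2.57 to −1.43, and Sncg falls to −3.14 on day 5 and −4.67 on day 6.

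Against the mean effect of the other 7 days, 77 probes (0.313%) differed on day 4, and the contrast was negative at 74. Of these, 67 were called lower on day 4, with a larger fall than that mean. The mean includes the early days, when the median fall of the 524 lower probes was smaller. A negative contrast therefore need not set day 4 apart from days 3 and 5. The effect at Ffar2, for instance, was −4.34 on day 3, −4.77 on day 4 and −4.84 on day 5. The most negative contrasts were Apoc4 (−2.43), Cox8b (−2.41), Thrsp (−2.25) and Ffar2 (−2.12), which were above background on no PPARγ KD array of day 4. Pnpla3, a lipase of the ATGL family, followed at −2.05, lost without replicate 1 (adjusted p = 0.181) or replicate 2 (adjusted p = 0.0676). The 3 probes in the other direction were Bmper (0.59), which binds bone morphogenetic proteins, Plin4 (0.52) and Gper1 (0.48), an estrogen-binding membrane receptor, and each of these was lost when any replicate was left out.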

How the data were processed

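The authors deposited the mean bead intensity of each probe on Illumina Sentrix MouseRef-8 BeadChips, summarised by BeadStudio without normalization, with the bead SD and number and a detection fraction, 1 minus the detection p-value. A further 192 value columns were not used. Here the deposited intensities were background-corrected by normexp on the detection p-values, adding an offset of 16 (limma 3.58.1, R 4.3.3), and each array was scaled on probes of stable rank (rank shift below 0.05 of the probes) lying between the 0.5 and 0.9 quantiles of mean signal. The log2 values, computed here from the deposited intensities, of all 48 arrays entered 1 fit (lmFit, eBayes) that estimated every combination of siRNA and day, blocked by replicate number. Calls used Bonferroni adjustment over 24613 probes at 0.05. Fits were tested on simulated data.

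The titles give the replicate numbers. Deviations from the group means correlated at 0.644 to 0.864 within day 4 pairs, but also at up to 0.711 between different numbers, and over all days the lowest pair gave 0.0239. The study calls the replicates biological, and the labels do not say how independent they were.

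The gene lists and genes were chosen with earlier results of these data known. Named were all Pparg probes, the first 3 genes of each list and up to 4 called genes in each direction, the 10 called probes with the largest change each way (above background on all 3 arrays of the brighter siRNA), up to 5 in each direction for each comparison of days, and genes of the study's reporter assays and screen. A gene was given by its brightest probe, and some uncalled genes near 0 by list counts only. The values of some genes that this rule names are not reported here. Symbols were matched to RefSeq (18343 probes by symbol, 4361 by synonym, 1909 left as in the file). Figures were drawn with matplotlib 3.10.9.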

Additional observations from a re-analysis of the deposited data

Results flagged for a closer look

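The results below drew attention because the siRNA effect on day 4 differed from that on day 3, on day 5 or from the mean of the other 7 days. The test was limma's, of the difference itself (Bonferroni over 24613 probes). Against day 3, the effect on day 4 was lower by 2.02 and 1.91 (log2 −2.02 and −1.91) at both probes of Apoc1, by −1.91 at Camp, −1.47 at Ubd and −1.29 at Acss2. It was higher by 1.80 at Map7d2, 1.14 at Pfkfb3, 0.81 at Pim3 and 0.78 at Plin4. Against day 5 the differences were 2.13 at Sncg, 1.83 at Ffar4, 1.58 at Egln3, 1.01 at Pdk1 and 0.91 at Cav2. Against the mean of the other 7 days they were −2.43 at Apoc4, −2.41 at Cox8b, −2.25 at Thrsp, −2.12 at Ffar2 and −2.05 at Pnpla3, and 0.59 at Bmper, 0.52 at Plin4 and 0.48 at Gper1. Apoc1, Pfkfb3, Sncg, Apoc4, Cox8b, Thrsp and Ffar2 passed the threshold in each alternative that was run for them. With 3 arrays per group, single samples were not examined for outliers.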

How the results depend on the processing

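All 591 calls kept their sign in every alternative. For most alternatives this was fixed in advance. The choice of block, the 6 arrays alone, the dim filter and Benjamini-Hochberg adjustment leave the estimated difference unchanged. Leaving out 1 replicate could not turn a sign, since all 3 pairs moved the same way. Only the settings of normalization, background correction and offset could have changed it. The count was 685 with quantile normalization, 577 with median scaling, 574 without background correction, 590 with an offset of 50, 643 after a filter on dim probes, 239 with the 6 arrays of day 4 alone, 1928 with Benjamini-Hochberg adjustment and 360 to 515 when 1 replicate was left out. The share of lower probes (88.7%) was 78.1% with quantile normalization, 83.6% without background correction, 94.6% with 6 arrays, 63.1% with Benjamini-Hochberg and 92.4% to 94.2% without 1 replicate. As to the pairing, 330 probes were called without the replicate block (94.5% lower) and 404 with a block for each pair of a day (94.3% lower). Of 111 probes of named genes, 19 missed the threshold without the replicate block (Fabp5, Fasn, Lss, Cpt2, Abcd2, Cs, Aldh6a1, Pim3, Dpt, Adamts2, Wnt6, Mgst3, Stc1, Prokr1, BC064033, Gfra1, the second Mmp3 probe, Egln3 and Cav2). With the 6 arrays alone 19 missed it (Klf15, Dbi, Fasn, Pmvk, Lss, Cpt2, Acadm, Acaa1b, Cs, Idh3a, Bckdha, Ivd, Plat, Adamts2, C3, Mgst3, Cyc1, Egln3 and Cav2). Of the named differences from day 3 or day 5, those of Plin4, Pim3, Camp, Ubd, Ffar4, Pdk1 and Cav2 were lost both without the block and with a block for each pair of a day, and those of Acss2, Map7d2 and Egln3 without the block only. The probes that differed between day 4 and day 3 (11) were 27 with quantile normalization, 17 with an offset of 50, 17 after the dim filter, 3 without the replicate block, 28 with Benjamini-Hochberg and 8 to 13 without 1 replicate. For day 5 (6) they were 12, 10 with the offset, 1 without the block, 2 with the block by day, 14 with Benjamini-Hochberg and 2 to 6 without 1 replicate, and for the other days (77) 41 without the block, 48 with the block by day, 277 with Benjamini-Hochberg and 37 to 84. Without day 4 replicate 3 the day 5 count was 2, and without replicate 1 or 2 the count against the other days was 38 or 37. Pparg (probe 6130632) lay between −2.20 and −2.43 throughout, and 15 to 17 of the 22 lists had a median below that of all probes. The medians of the interferon, chemokine and ribosomal lists lay near 0 and changed sign under some settings. The causes were not tested. A BeadChip block was not run, and comparisons of days need more than the 6 arrays.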
